A study of Mus musculus with 7 samples.

Results

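Chromatin of pancreatic epithelium harvested 7 days after caerulein-induced inflammation was compared with chromatin of untreated pancreatic epithelium, by the accessible regions (ATAC-seq peaks) called in each library. A region was gained when a day 7 peak on chromosomes 1 to 19 and X shared no base with any untreated peak, and lost when an untreated peak shared no base with any day 7 peak. The comparison used 2 of the 7 samples of the series. Of 145337 day 7 regions, 52272 were gained, which is 36.0% (exact 95% binomial interval 35.72 to 36.21%, counting error only), and 93065 were kept. Of 140286 untreated regions, 44918 were lost, which is 32.0% (31.77 to 32.26%). These shares are the background for every count below.

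Each group was 1 library of epithelial cells purified from digested pancreata of C57BL/6J wild-type mice, untreated or taken at day 7 after caerulein. The day 1 and day 28 libraries of the same time course are given beside them as values, and comparisons at the 3 days share the untreated library. The number, sex and age of the mice behind a library are not given in the labels. With 1 library per group there was no replicate check, and no test between groups could be made.

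Caerulein is an analogue of cholecystokinin that overstimulates acinar cells, the enzyme-secreting cells that make up most of the exocrine pancreas, and causes acute pancreatitis. During injury, acinar cells lose secretory features and take on duct-like ones, a change called acinar-to-ductal metaplasia, and regain acinar features as inflammation resolves. ATAC-seq cuts DNA with the Tn5 transposase where it is not packed in nucleosomes, so that promoters and enhancers in use appear as peaks.

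To show what lay under regions that differed at gene starts, the 200 bases before the RefSeq start (GRCm38.p6) were printed for 3 genes with a gained and 3 with a lost region there, each region covering the marked letters. These were chosen after their values were seen. In the first 3, capitals mark the AP-1 letters TGANTCA, which FOS and JUN dimers bind. Sbsn encodes the secreted epidermal protein suprabasin, Olr1 a scavenger receptor for oxidised LDL and Mmp3 the matrix protease stromelysin 1. In the last 3, genes of the acinar zymogen granule and of lipase proteins, capitals mark TGGGAA or its reverse complement, the letters bound by RBPJ, whose relative RBPJL is part of the acinar PTF1 complex. The Sbsn sequence also holds TGGGAA once, left in lower case, so these letters are no trait of the lost promoters alone.
Sbsn, chr7:30751271-30751470 (+ strand): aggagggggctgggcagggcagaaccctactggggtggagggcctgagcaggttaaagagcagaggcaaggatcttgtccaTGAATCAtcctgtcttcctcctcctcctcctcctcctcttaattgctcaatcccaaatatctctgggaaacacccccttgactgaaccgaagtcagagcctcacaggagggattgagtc
Olr1, chr6:129507166-129507365 (- strand): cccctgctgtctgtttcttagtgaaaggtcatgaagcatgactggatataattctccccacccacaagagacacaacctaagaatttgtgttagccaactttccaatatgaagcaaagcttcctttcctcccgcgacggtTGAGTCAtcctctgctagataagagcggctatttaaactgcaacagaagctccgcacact
Mmp3, chr9:7445622-7445821 (+ strand): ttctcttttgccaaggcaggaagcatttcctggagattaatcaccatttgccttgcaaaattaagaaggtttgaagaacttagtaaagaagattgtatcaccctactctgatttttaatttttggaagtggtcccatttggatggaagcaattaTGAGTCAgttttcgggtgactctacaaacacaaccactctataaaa
Gp2, chr7:119459273-119459472 (- strand): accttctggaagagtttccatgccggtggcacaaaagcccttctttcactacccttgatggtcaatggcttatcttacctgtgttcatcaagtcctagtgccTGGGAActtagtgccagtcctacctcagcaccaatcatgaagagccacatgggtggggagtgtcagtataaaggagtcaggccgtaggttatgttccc
Pnlip, chr19:58670165-58670364 (+ strand): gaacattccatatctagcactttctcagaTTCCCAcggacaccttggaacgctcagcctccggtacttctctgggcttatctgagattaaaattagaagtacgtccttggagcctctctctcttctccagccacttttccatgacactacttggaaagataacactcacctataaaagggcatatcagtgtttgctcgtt
Pnliprp1, chr19:58728687-58728886 (+ strand): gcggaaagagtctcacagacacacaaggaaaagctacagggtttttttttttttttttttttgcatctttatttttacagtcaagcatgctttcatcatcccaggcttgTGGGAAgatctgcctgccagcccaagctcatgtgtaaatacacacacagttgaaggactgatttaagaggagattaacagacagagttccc

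A match of letters is a description of the sequence and not a bound site, and the shares over all promoters below set these 6 in proportion.

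The strength of a region, its fold enrichment over background, is the authors' own value and ranks regions only within its list. Gained and lost regions were mostly weak ones. With each list split into 4 equal groups by fold, 63.29% of the day 7 regions in the lowest group, at folds of 2.955 to 4.567, were gained. In the highest group, from 13.97 upward, 848 regions or 2.334% were gained. In the untreated list 59.06% of the lowest and 2.974% of the highest group were lost, the latter being 1043 regions. Most regions that distinguished the libraries were thus narrow and near the calling floor, with a median width of 220 bp for gained regions against 467 bp for kept ones, and 193 bp for lost regions against 404 bp for kept ones.

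**Figure D1:**
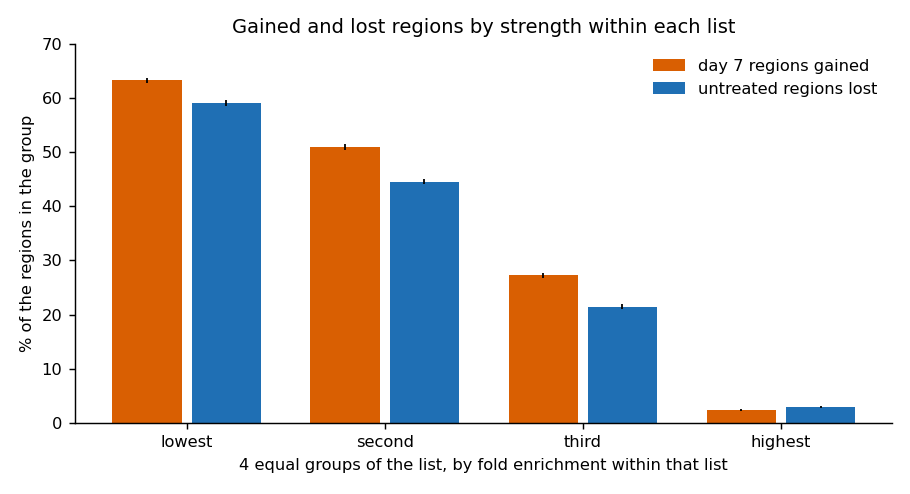
Share of regions gained (orange, of day 7 regions) and lost (blue, of untreated regions), in percent on the vertical axis, for 4 equal groups of each list ranked by fold enrichment on the horizontal axis. Bars show 1 library each and black lines exact 95% binomial intervals for counting error; the gained share goes from 63.29% in the lowest group to 2.334% in the highest.

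The libraries did not have the same contrast of peak over background. Over regions that overlapped a peak in each of the other 3 epithelial lists, the median fold was 7.25 in the untreated and 14.51 in the day 7 library, and the background read pileup implied by the folds was 5.069 and 2.723. When the day 7 floor was raised by the ratio of these medians above background, to a fold of 4.18, 38259 regions were gained and 49934 were lost, so the balance between gained and lost turned. That setting was chosen after seeing the data. The gene groups below are therefore read by how far they stood from all genes under the same setting.

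Gene starts differed least. Of 18760 day 7 regions with a summit within 1 kb of a start, 15.12% were gained, against 36.78% of 69130 other regions inside gene spans, 37.86% of 35865 regions outside but within 50 kb of a gene, and 51.46% of 16659 regions farther away. Of untreated regions, 13.2% near starts, 36.93% inside genes, 31.85% within 50 kb and 34.35% farther away were lost. Gained regions thus lay far from genes more often than lost ones did. On the X chromosome 43.33% of 2315 day 7 regions were gained and 22.4% of 1710 untreated regions were lost, outside the range of the autosomes (31.5 to 39.27% gained, 29.83 to 34.46% lost). The sex of the mice is not given, and the Y chromosome, which the rule leaves out, held 9 untreated and 7 day 7 regions.

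Each summit was assigned to whichever protein-coding gene lay closest, at most 50 kb away, which placed 43050 gained and 40121 lost regions. Where several genes lay equally close, as with overlapping spans, the summit went to the first symbol in alphabetical order. Counts of genes that overlap others, as in gene clusters, depend on that choice. Of 21631 genes in the RefSeq table, 17039 held a region in either list, 10917 held a gained region, 10812 a lost one and 7497 both. At least 5 more gained than lost regions were found at 1385 genes (8.13%) and at least 5 more lost than gained at 1146 genes (6.73%). With the raised day 7 floor these counts were 775 and 1670, so this balance turned as well. The 1691 genes with the most gained regions held 50% of those linked and the 1796 with the most lost 50% of the lost ones, where 2318 genes held 50% of all linked day 7 regions and 2365 genes 50% of the untreated ones. A smaller set of regions ranked by its own counts needs fewer genes by itself, so no concentration is read from these numbers.

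The gained side was led by Fndc3b, with 81 untreated, 153 day 1, 131 day 7 and 123 day 28 regions, of which 62 were gained and 15 lost at day 7. Large genes have more room for regions, and the territory nearest to Fndc3b spans 364 kb. Rbms3, which encodes an RNA-binding protein, held 48, 164, 102 and 63 regions in the same order of libraries, with 57 gained and 2 lost over 1157 kb. Ebf1, a transcription factor of stromal and B cells, held 38, 113, 76 and 45 (47 gained, 7 lost). Fbn1, which encodes the matrix protein fibrillin 1, held 33, 106, 72 and 50 (43 gained, 3 lost). At these 4 genes the day 7 count lay between the untreated and the day 1 count, and the day 28 count above the untreated one.

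Some genes had their highest count at day 7. Gfpt2, a rate-limiting enzyme of hexosamine synthesis, held 14 untreated, 49 day 1, 62 day 7 and 32 day 28 regions in a territory of 89 kb, with 51 gained and 0 lost. Hk2, the inducible hexokinase that starts glycolysis, held 23, 63, 64 and 21 (41 gained, 1 lost). Runx1, a transcription factor that partners CBFB, held 33, 61, 62 and 43 (36 gained, 6 lost). Jak1, a kinase of cytokine receptors, held 46, 65, 76 and 53 (40 gained, 9 lost). Anxa1, which encodes the anti-inflammatory annexin A1, held 6, 19, 27 and 8 (22 gained, 0 lost). At Hk2 and Runx1 days 1 and 7 differed by 1 region only, which is no ground for an order.

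On the lost side, Gse1, which encodes a coiled-coil protein, held 197 untreated, 110 day 1, 116 day 7 and 147 day 28 regions, with 15 gained and 101 lost. Arhgap26, a GTPase-activating protein, belonged to both ends, with 40 gained and 88 lost among 152 day 7 and 191 untreated regions. Prdm16 held 107 and 80 regions (16 gained, 62 lost), Rbm47, an RNA-binding protein of epithelia, 88 and 52 (5 gained, 51 lost), and Rap1gap2 95 and 57 (3 gained, 48 lost), in the untreated and day 7 lists. Dmbt1, a secreted glycoprotein of epithelial surfaces, held 53, 3, 20 and 50 regions in the 4 libraries, with 0 gained and 42 lost. Its count was lowest at day 1, intermediate at day 7 and near the untreated level at day 28.

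**Figure D2:**
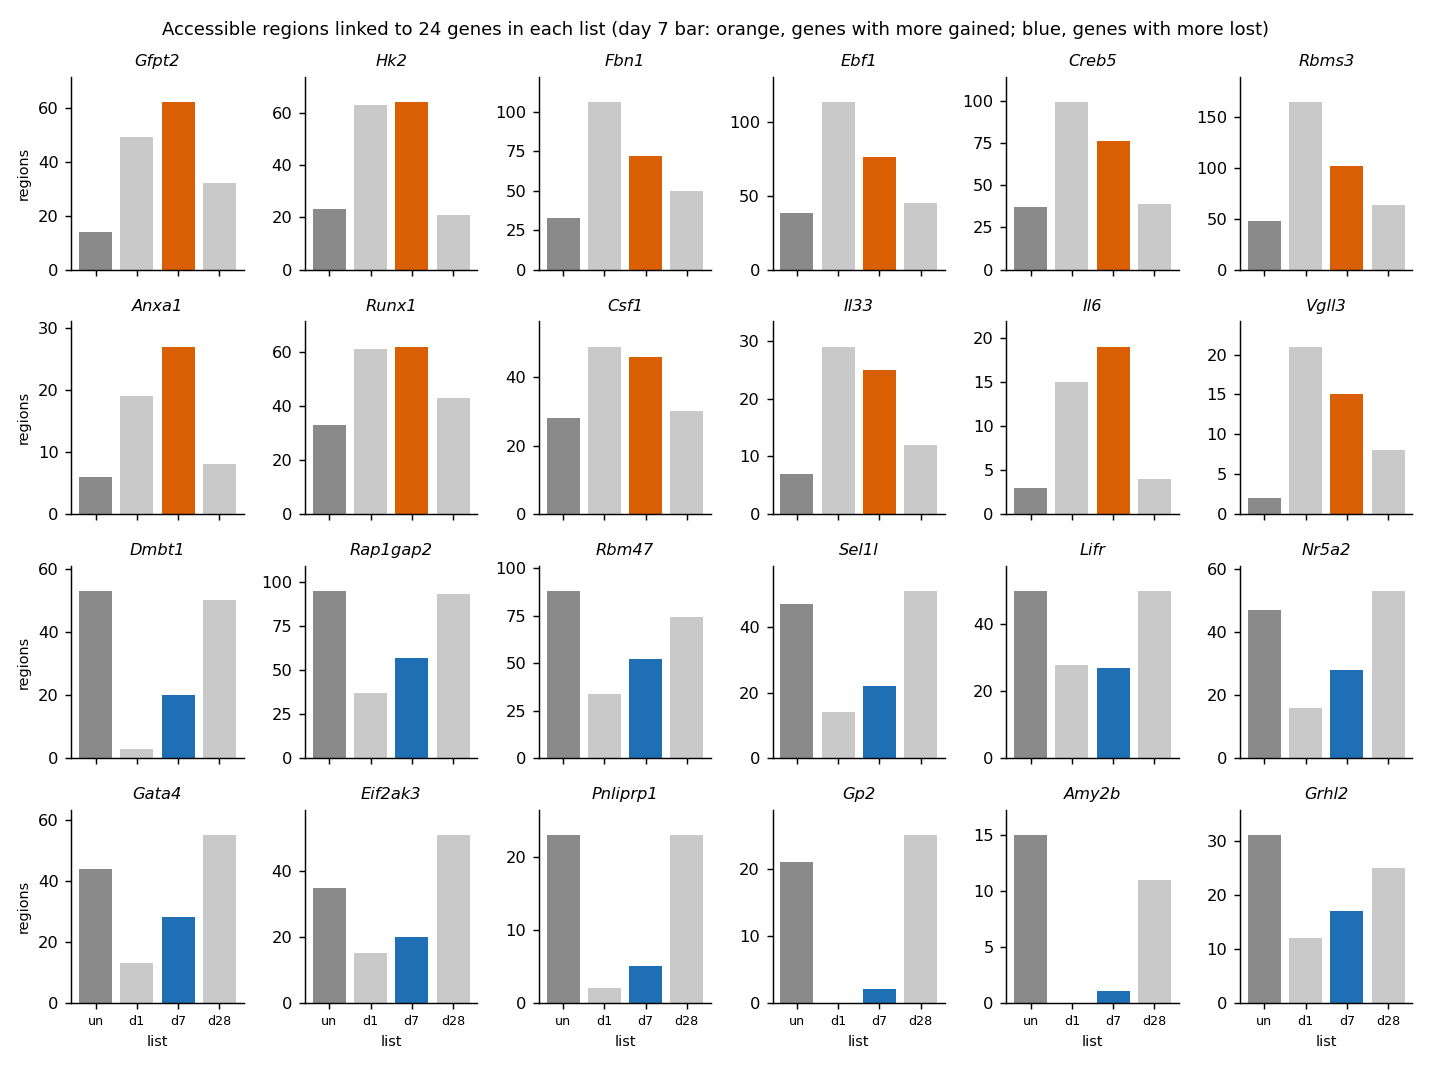
Number of accessible regions linked to each of 24 genes (vertical axes, own scale from 0) in the untreated (un), day 1 (d1), day 7 (d7) and day 28 (d28) lists, 1 library per bar. The day 7 bar is orange for 12 genes with more gained and blue for 12 with more lost regions; Gfpt2 goes from 14 untreated to 62 day 7 regions and Gp2 from 21 to 2.

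By share rather than number, among 3846 genes with at least 10 day 7 regions, Aoah stood first. Aoah encodes an enzyme that deacylates bacterial lipopolysaccharide, and it held 0 untreated, 2 day 1, 10 day 7 and 2 day 28 regions, so that each of its day 7 regions was gained. Il6, the cytokine that signals through STAT3, held 3, 15, 19 and 4 (17 gained, 1 lost). Eya4, a transcriptional coactivator, held 3, 18, 20 and 5 (18 gained, 1 lost), and Vgll3, a TEAD cofactor, 2, 21, 15 and 8 (13 gained, 0 lost). The same group of 20 held the cell adhesion gene Opcml with 6 untreated and 32 day 7 regions, the calcium channel subunit gene Cacna2d3 with 4 and 22, and Car10 with 1 and 11. The Schwann and neuronal list was near all genes in its gained share, with 41 of 131 day 7 regions (31.3%), and 28 of 122 untreated regions lost (23.0%). Beside Aoah, the genes with gained and no untreated regions included Cacng6 and Gabrb2 with 7 each, and Adam23 with 6.

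Among 3875 genes with at least 10 untreated regions, the highest shares lost were at Ugt1a1, which conjugates bilirubin (10 untreated and 2 day 7 regions, 10 lost), Gp2 (21 and 2, 20 lost), Amy2b (15 and 1, 14 lost) and B3galt5 (12 and 2, 11 lost). Pnliprp1, Zg16, Amy1 and Cuzd1, all genes of acinar secretory proteins, and the epithelial factor Tfcp2l1 were also among the 20. Amy1 and Amy2b lie in a cluster of near-identical amylase copies, where short reads cannot always be placed, so their counts are uncertain. The genes with untreated and no day 7 regions included Fgf4 with 7, the mucin Muc5b with 5, and the amylase copy Amy2a5 and the RNA-editing cofactor A1cf with 4 each.

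Runs of neighbouring gained or lost regions were also listed. No matching count was made for kept regions, so no tendency to cluster is read from them. With summits at most 10 kb apart, there were 2618 gained and 2716 lost runs of at least 4 regions. The longest gained run had 46 regions over 43.5 kb at Gfpt2 (chr11:49795790-49839320), where the untreated list held 5, the day 1 list 32, the day 7 list 51 and the day 28 list 18 regions. In the window of the gene and 50 kb on each side, the 55 gained regions had folds of 3.224 to 13.7 (median 5.373), and the 16 kept ones reached 181.6. The gained regions at Gfpt2 were thus many weak peaks along the gene body, between strong peaks that both lists held.

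Other long gained runs lay at Hk2 (39 regions over 58.8 kb), across Hoxb2, Hoxb3, Hoxb5 and Hoxb6 (33 regions over 58.2 kb), at the scaffold gene Ahnak (29 regions), across the integrin gene Itga5 and Zfp385a (29), at the AP-1 gene Fosl2 (24 regions over 34.9 kb) and at Jak1 and Raver2 (23). At the run across Chka and Tcirg1 the 4 lists held 17 untreated, 4 day 1, 35 day 7 and 41 day 28 regions, an order unlike that at Gfpt2. The longest lost run had 43 regions over 108.0 kb across Rrbp1, Dstn and Bfsp1 (chromosome 2), where the lists held 71 untreated, 37 day 1, 36 day 7 and 75 day 28 regions. Rrbp1 encodes a ribosome-binding protein of the secretory endoplasmic reticulum. Further lost runs lay at Sel1l (31 regions, with 39, 6, 14 and 37 in the lists), Cd82 (31), Dmbt1 (27) and Hnf4a with Ttpal (26).

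**Figure D3:**
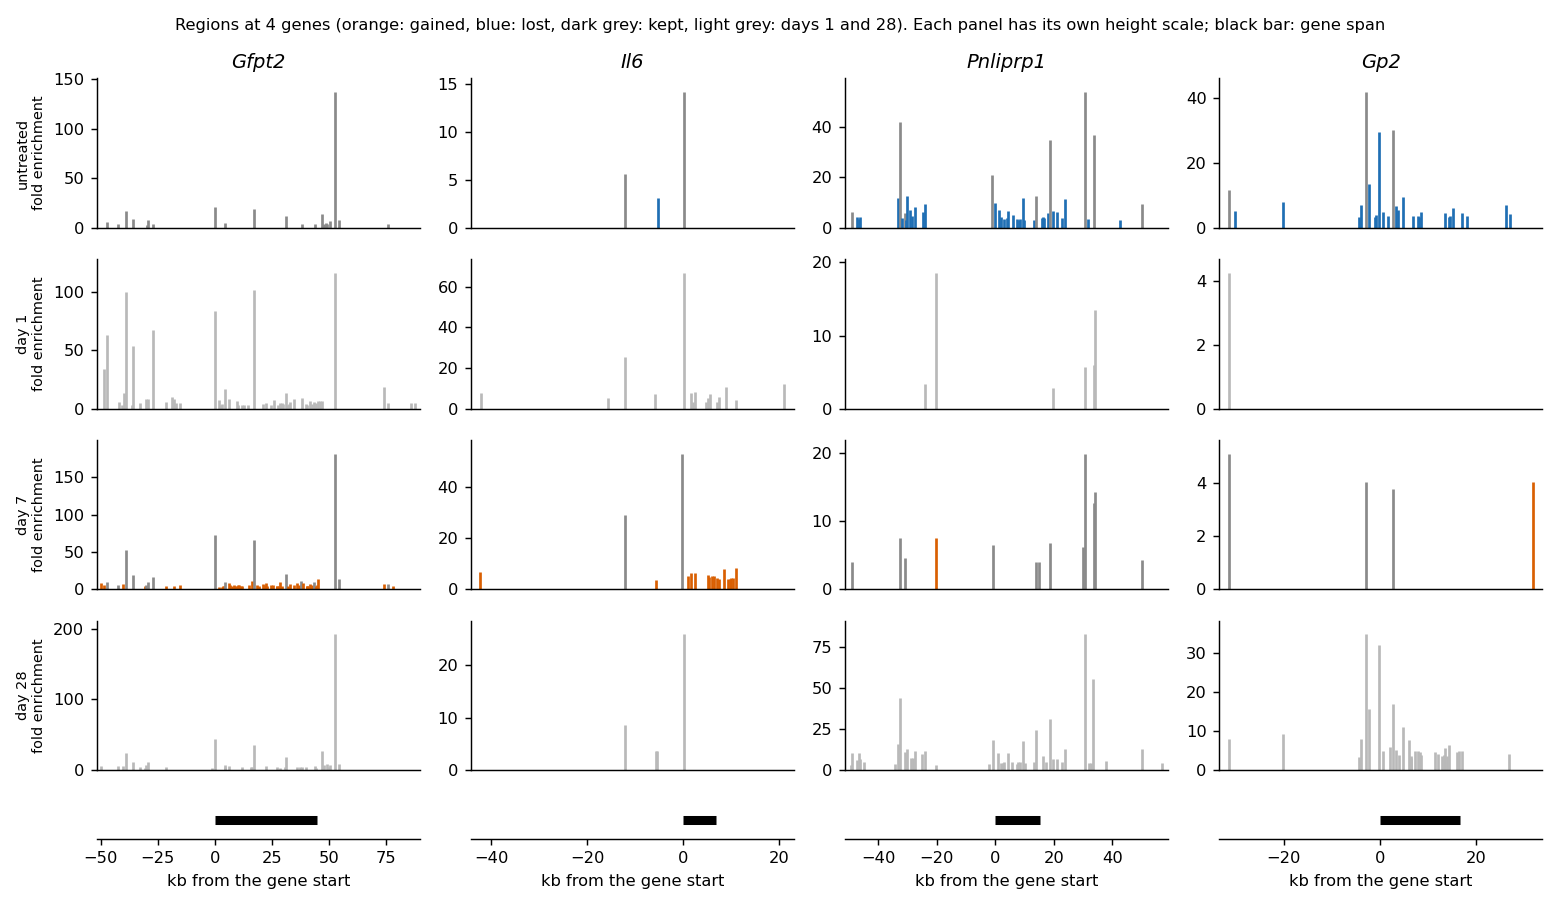
Regions around Gfpt2, Il6, Pnliprp1 and Gp2 in the 4 lists: position of the summit in kb from the gene start (horizontal) and fold enrichment within the list (vertical, own scale in each panel). Orange marks gained, blue lost and dark grey kept regions of the day 7 comparison, light grey the day 1 and day 28 lists, black bars the gene spans; the windows hold 55 gained regions at Gfpt2, 17 at Il6, and 35 and 25 lost regions at Pnliprp1 and Gp2.

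Gene groups were read from 36 lists against all genes, for which 33.9% of 127142 linked day 7 regions were gained and 31.8% of 126115 linked untreated regions were lost. In the same setting with the raised day 7 floor these shares were 28.8% and 35.4%. More gained than lost regions were found in 22 lists and more lost in 13, and with the raised floor in 9 and 27.

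The digestive enzyme genes stood farthest from all genes on the lost side. At 26 matched genes 234 of 336 untreated regions were lost (69.6%) and 11 of 175 day 7 regions gained (6.29%), and the day 1 and day 28 lists held 67 and 346. Of these genes, 23 had more lost than gained regions, 0 more gained and 3 equal numbers, where 37.0% of all genes with a region had more lost. With the raised floor the shares were 73.5% lost and 4.23% gained. Pnlip, which encodes pancreatic triglyceride lipase, held 30 untreated, 7 day 1, 13 day 7 and 42 day 28 regions (2 gained, 20 lost), and the granule membrane gene Gp2 held 21, 0, 2 and 25. At both genes the day 28 count exceeded the untreated one. Elastase genes, named after their values were seen, differed among themselves. Cela1 held 7 untreated and 18 day 7 regions and Cela2a 17 and 20, with 0 gained and 4 and 7 lost, so that their added day 7 peaks lay on untreated regions. Cela3a held 7 and 8 (0 gained, 1 lost). Cela3b, with 16 and 8 (0 gained, 12 lost), held fewer regions at day 7, as Pnlip and Gp2 did. Amy2b, Gp2 and Pnlip lost their region at the start itself, and 14 of the 22 members with an annotated start held a region there in both lists. Over all genes with an annotated start 11228 of 17274 did, which is a similar share. A lost region, however, lay within 1 kb of the start at 12 of the 22, and at 1489 of the 17274. No region in either list was held there by 5 of the 22 and 5374 of the 17274. Fewer acinar cells in the day 7 material and fewer open regions per acinar cell cannot be told apart in a bulk library.

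The acinar transcription factors gave lower shares, with 136 of 306 untreated regions lost (44.4%) and 54 of 254 day 7 regions gained (21.3%) at 12 genes. Nr5a2, a nuclear receptor that maintains acinar identity, held 47, 16, 28 and 53 regions (5 gained, 27 lost), and Gata4 held 44, 13, 28 and 55 (2 gained, 25 lost). Ptf1a, the bHLH factor that drives the enzyme genes with RBPJL, held 17, 3, 9 and 18 (0 gained, 10 lost). These 3 genes had the fewest regions at day 1. Foxp1, also in this list, had 32 gained and 43 lost among 110 untreated and 102 day 7 regions. All 10 members with an annotated start held a region there in both lists, where 11228 of 17274 genes did. A lost region lay within 1 kb of the start at 2 of the 10, and at 1489 of the 17274.

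Genes of protein folding in the endoplasmic reticulum and of the unfolded protein response lost 158 of 365 untreated regions (43.3%) and gained 65 of 299 day 7 regions (21.7%) at 30 genes. Sel1l, a component of ER-associated degradation, held 47, 14, 22 and 51 (2 gained, 33 lost). The stress sensors Ern1 and Eif2ak3, which encode IRE1 and PERK, held 33, 17, 20 and 25 (5 gained, 18 lost) and 35, 15, 20 and 51 (0 gained, 18 lost). The third sensor, Atf6, went the other way, with 13, 24, 22 and 31 (13 gained, 5 lost), as did Creb3l2 with 36, 56, 45 and 36 (17 gained, 7 lost). Genes of amino acid supply and tRNA charging lost 88 of 213 regions (41.3%) and gained 35 of 180 (19.4%), with Wars, the tryptophanyl-tRNA synthetase, at 17, 2, 8 and 16. The general secretory pathway list, with 36.3% lost and 34.0% gained, was near all genes.

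Duct and foregut transcription factors were on the lost side as well. At 15 genes, 119 of 259 untreated regions were lost (45.9%) and 34 of 195 day 7 regions gained (17.4%). Grhl2, a regulator of epithelial junctions, held 31, 12, 17 and 25 regions (1 gained, 18 lost). Hnf4a held 25, 10, 13 and 14 (2 gained, 16 lost), Elf3 19, 4, 8 and 10 (0 gained, 11 lost) and Ehf 20, 14, 12 and 19 (4 gained, 13 lost). Gata6, which encodes a factor of both acinar and duct cells, held more gained than lost regions, at 12, 8, 17 and 16 (8 gained, 3 lost). With the raised floor this list had 49.0% lost and 12.5% gained. Markers of intestinal epithelium, described below, were also on the lost side (57.2% lost). At Hnf4a and Elf3 the day 28 count stayed nearer to day 7 than to the untreated count, as it did over those markers. Other members went the other way. At Ehf, Grhl2, Foxa2 (26, 13, 17 and 29) and Tfcp2l1 (12, 2, 3 and 8) the day 28 count lay nearer to the untreated one. The part of intestinal tissue in these counts was not tested.

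Duct keratin, junction and transport genes were mixed, with 36.9% of 366 untreated regions lost and 28.1% of 352 day 7 regions gained. The bicarbonate cotransporter gene Slc4a4 held 17, 36, 36 and 20 regions (23 gained, 5 lost). E-cadherin, Cdh1, held 41, 13, 29 and 38 (4 gained, 19 lost), and the keratin gene Krt19 held 20, 7, 10 and 14 (1 gained, 10 lost), whereas Krt7 held 8, 7, 13 and 13 (6 gained, 2 lost). Spp1, which encodes osteopontin, held a region at its start at day 7 and none in the untreated list, and Mmp7 the reverse. The mucin, trefoil and metaplasia list lost 68 of 117 regions (58.1%) and gained 25 of 80 (31.2%). Reg1 held 9, 0, 1 and 9 regions and the trypsin inhibitor gene Spink1 16, 2, 9 and 14. The starts of Muc6, Agr2, Reg2, Reg3b and Reg3g held a region in the untreated list alone. The Reg genes are close copies of each other in a cluster, so their counts are uncertain.

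**Figure D4:**
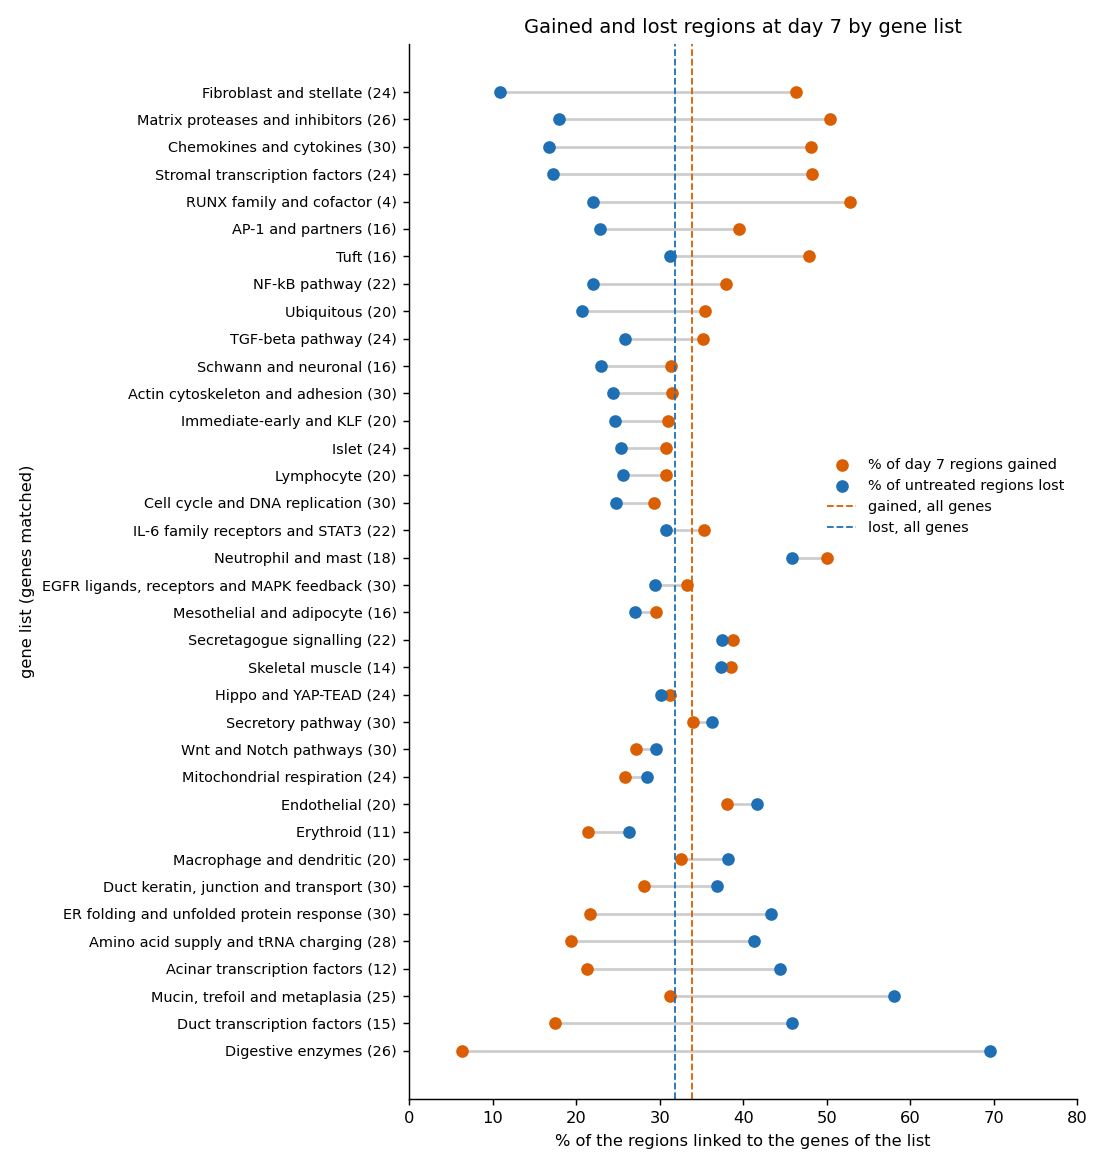
Share of day 7 regions gained (orange points) and of untreated regions lost (blue points), in percent on the horizontal axis, for the genes of 36 lists (vertical axis, number of matched genes in brackets), with dashed lines at the shares over all genes (33.9% and 31.8%). Stromal, matrix and cytokine lists stand at the top with high gained and low lost shares, and the digestive enzyme list at the bottom with 6.29% gained and 69.6% lost.

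Chemokine and cytokine genes gained 116 of 241 day 7 regions (48.1%) and lost 29 of 174 untreated regions (16.7%) at 30 genes, and 39.8% and 19.5% with the raised floor. Of the gained regions 70 lay at 4 genes, Csf1, Il33, Il6 and Ccl2, and the other 26 genes gained 46 of 130 (35.4%), near the share over all genes. Of the 30 genes, 15 had more gained and 7 more lost regions. Csf1, the growth factor of macrophages, held 28, 49, 46 and 30 regions (22 gained, 2 lost), and Il33, an alarmin, 7, 29, 25 and 12 (18 gained, 0 lost). Ccl2, which attracts monocytes, held 10, 20, 21 and 10 (13 gained, 0 lost). All 3 counts at day 28 were within 5 regions of the untreated ones. Of the NF-kB list 37.9% of day 7 regions were gained and 22.0% of untreated regions lost. Its feedback inhibitor gene Tnfaip3, which encodes A20, held 13, 29, 29 and 12 (17 gained, 0 lost), and Nfkb1 36, 88, 44 and 36 (24 gained, 13 lost).

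The genes of the AP-1 family and its partners gained 124 of 314 day 7 regions (39.5%) and lost 60 of 263 untreated ones (22.8%) at 16 genes. The members differed. Fosl2 held 23, 33, 42 and 26 (25 gained, 4 lost), and the repressor genes Bach1 and Bach2 held 35, 60, 48 and 25 (21 gained, 10 lost) and 43, 77, 56 and 37 (27 gained, 11 lost). With the raised floor Bach1 had 1 more lost than gained region. Fos itself held 33, 36, 31 and 35 (8 gained, 9 lost) and Atf3, an immediate-early gene, 19, 30, 11 and 14 (1 gained, 3 lost). Of Runx1, Runx2, Runx3 and their cofactor gene Cbfb, 52.8% of 123 day 7 regions were gained and 22.0% of 82 untreated regions lost, mostly through Runx1, and Runx2 held a region at its start at day 7 and none in the untreated list.

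The IL-6 receptor and STAT3 list was split between members, with 35.3% gained and 30.8% lost. Jak1 and the kinase gene Pim1, at 13, 24, 25 and 18 (14 gained, 2 lost), were on the gained side, and Lifr, the receptor of leukaemia inhibitory factor, at 50, 28, 27 and 50 (5 gained, 30 lost), and Il6ra, at 27, 19, 15 and 21 (2 gained, 14 lost), were on the lost side. Il1rl1, the receptor of IL-33, held 1, 12, 8 and 1 regions, and a region at its start at day 7 and not in the untreated list. The list of EGFR family ligands, receptors and MAPK feedback genes was near all genes, with 33.3% gained and 29.4% lost. Nrg1, whose product neuregulin 1 binds the relatives ERBB3 and ERBB4, held 8, 29, 21 and 8 (14 gained, 1 lost). The EGFR ligand genes with the most lost regions were on the other side, with Tgfa at 30, 14, 21 and 30 (2 gained, 14 lost) and Areg at 8, 3, 1 and 2 (0 gained, 7 lost). Egfr itself had 20 gained and 12 lost, and 2 more lost than gained with the raised floor.

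Wnt and Notch genes were near all genes as a list (27.1% gained, 29.5% lost) but not as members. Notch2 held 32, 65, 55 and 39 regions (29 gained, 1 lost), and Notch1 45, 33, 35 and 37 (3 gained, 18 lost). The Wnt target Axin2 held 20, 31, 34 and 29 (13 gained, 1 lost). The R-spondin receptor Lgr4 held 33, 13, 18 and 32 (1 gained, 20 lost) and the ligase gene Rnf43, which removes Wnt receptors, 22, 3, 10 and 21 (0 gained, 11 lost). Hippo pathway genes had equal numbers, 126 gained and 126 lost. In that list Vgll3 and Frmd6, at 31, 58, 43 and 36 (21 gained, 5 lost), stood against Tead1, at 77, 61, 62 and 68 (13 gained, 25 lost). In the secretagogue list, which includes the receptor that caerulein binds, the kinase gene Prkca held 43, 52, 58 and 45 (26 gained, 6 lost) and Cckar, the gene of that receptor, 17, 7, 10 and 15 (1 gained, 10 lost).

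TGF-beta pathway genes gained 35.2% of 605 day 7 regions and lost 25.8% of 555 untreated ones, and genes of the actin cytoskeleton and adhesion 31.5% of 650 and 24.4% of 565. With the raised floor these shares were 31.0% and 30.8%, and 26.5% and 28.0%, against 28.8% and 35.4% over all genes in that setting. Members stood on both sides. The coreceptor gene Tgfbr3 held 57, 93, 72 and 54 regions (30 gained, 13 lost), and Smad6, an inhibitor of BMP signalling, 60, 41, 47 and 45 (3 gained, 15 lost). Cd44, the hyaluronan receptor gene, held 17, 89, 40 and 20 (26 gained, 0 lost), and Itga5, a chain of the fibronectin receptor, 19, 32, 34 and 23 (23 gained, 0 lost). At Cd44 the day 7 count was below the day 1 count and above the untreated and day 28 counts.

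Among lists of more than 20 genes, those of matrix proteases, stromal transcription factors, cytokines and fibroblast markers had the 4 highest gained and the 4 lowest lost shares. Of the shorter lists, RUNX (52.8%), neutrophil and mast (50.0%) and tuft (47.9%) had gained shares above that of the fibroblast list. Their lost shares were 22.0%, 45.8% and 31.2%, and many of the gained tuft regions lay at Dclk1 alone. Fibroblast and stellate markers, which check for mesenchymal cells, gained 184 of 397 day 7 regions (46.3%) and lost 31 of 287 untreated regions (10.8%), and 24 of 24 members held more gained than lost regions, where 38.1% of all genes with a region did. With the raised floor the shares were 38.8% and 11.8%. Col5a1, a fibrillar collagen gene, held 35, 93, 53 and 36 regions (30 gained, 4 lost), and Col3a1 7, 24, 18 and 12 (11 gained, 0 lost). Stromal transcription factors gained 48.3% of 544 and lost 17.2% of 383 regions. Zeb1, a repressor of epithelial genes, held 20, 52, 38 and 26 (23 gained, 0 lost), and Wt1 17, 48, 37 and 24 (22 gained, 0 lost). Matrix proteases and their inhibitors gained 50.4% of 349 and lost 17.9% of 234 regions. Plat, the tissue plasminogen activator gene, held 9, 15, 26 and 7 (20 gained, 0 lost), and Tnc, the tenascin C gene, 10, 94, 23 and 12 (15 gained, 1 lost).

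No member of the fibroblast list was without a region in the untreated library except Lum. Each of its 15 members with an annotated start held a region there in both lists, where 11228 of 17274 genes did. A gained region lay within 1 kb of the start at 6 of the 15, and at 1614 of the 17274. The part of mesenchymal cells in the gained regions of matrix, cytokine and stromal genes was not tested. The lost shares of the other marker lists were higher than that of the fibroblast list. Endothelial markers gained 79 of 208 and lost 97 of 233 regions (38.0% and 41.6%), macrophage and dendritic markers 26 of 80 and 34 of 89 (32.5% and 38.2%), and lymphocyte markers 27 of 88 and 21 of 82 (30.7% and 25.6%). Neutrophil and mast cell markers had few regions, with 14 of 28 day 7 regions gained (50.0%) and 11 of 24 untreated regions lost (45.8%), and 8 members with more gained against 2 with more lost. Ltf, which encodes lactoferrin, held 1, 4, 5 and 1 regions (4 gained, 0 lost), and 6 of the 18 members, among them Ly6g and Elane, held none in the untreated and day 7 lists. Of the lymphocyte markers, Cd2 held 6, 14, 14 and 9 (9 gained, 0 lost), Ptprc, the gene of the pan-leukocyte protein CD45, held 4 regions in the untreated and 4 in the day 7 list, and 5 of 20, among them Cd3d, Cd8a and Ms4a1, held none in both. Over all protein-coding genes 4592 of 21631 held none in both, a share near that of the lymphocyte markers. The part of these cells in the gained regions was not tested.

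The labelled cell type was checked on Epcam, Cdh1, Krt8 and Krt18, chosen after their values were seen. Epcam held 19 untreated and 12 day 7 regions, Krt8 10 and 12, and Krt18 15 and 19, and the starts of these 3 genes were open in both lists. Cdh1 has no start in the table. The material thus carried epithelial regions in both libraries. Beside them, Cdh5 and Pecam1, genes of endothelial cells, held 11 and 21 untreated and 10 and 23 day 7 regions. Col1a1 held 23 in each (8 gained, 2 lost), whereas the fibroblast list as a whole held 287 untreated and 397 day 7 regions. Tuft cell markers gained 67 of 140 and lost 35 of 112 regions, with Dclk1 at 19, 63, 42 and 26 (28 gained, 1 lost). Their median gained share per gene was 25.0%, as over all genes, with 6 members more gained and 4 more lost. Genes used by all cells gained 45 of 127 day 7 regions (35.4%) and lost 19 of 92 untreated regions (20.7%) at 20 genes. Of these, 6 had more gained, 6 more lost and 8 equal numbers. Ywhaz held 22 and 51 regions (30 gained, 2 lost), and Gapdh, Hprt and Tbp gained and lost 0.

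Of genes with a region within 1 kb of a start at day 7, 356 of 11584 (3.07%) held none in the untreated list. Of those with one in the untreated list, 316 of 11544 (2.74%) held none at day 7. The strongest gained start regions of the day 7 list lay at Sbsn (fold 23.1, summit 48 bases before the start), at Glrb (21.22), at Clip4 (16.39) and at Htr2b (16.12). Further down the 15 strongest were Olr1 (13.7), the phosphate hormone gene Fgf23 (13.43), the keratinocyte growth factor gene Fgf7 (12.89) and the chemokine gene Cxcl9 (12.63). Each of these 8 genes also had a day 1 peak there. The strongest lost start regions of the untreated list lay at Gp2 (29.33), Rbm47 (15.16), Gpa33 (12.69), Pnlip (12.03), Lgals4 (11.86) and Cela3b (11.53). None of these 6 had a day 1 peak there. Gp2, Pnlip, Pnliprp1 and Reg3b had one at day 28, and Gpa33, Lgals4, Phgr1 and Pck1 had none at day 1 or day 28. A gained or lost start region did not always mean a start open in 1 list alone. The starts of Clip4, Fgf7, Rbm47, Cela3b and Pnliprp1 held a region in both the untreated and the day 7 list. The gained summit lay 843 bases after the start at Clip4, and at the edge of the 1 kb window at Fgf7.

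Gpa33, Lgals4 and Phgr1 are best known from intestinal epithelium, so a list of 24 intestinal epithelial genes was added after seeing the data. It held 152 untreated, 92 day 1, 96 day 7 and 82 day 28 regions, with 87 lost (57.2%) and 26 gained (27.1%). The day 28 count was the lowest of the 4, whereas that of the enzyme genes was the highest. Vil1, the gene of the microvillus protein villin, held 8, 2, 3 and 3 regions, and Guca2a, the guanylin gene, 7, 2, 1 and 1. The part of intestinal tissue in the untreated library was not tested.

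Promoter sequences (250 bases before to 50 after each RefSeq start, 21020 windows, none from chromosome 18) were searched for motif letters on both strands. Gained regions alone overlapped 398 windows and lost regions alone 326. A region held by both lists, with or without others, overlapped 13184, and no region 7104. The few windows with gained and lost regions but none held by both lists were in none of these classes. Promoters that differed had fewer CpGs than kept ones, with a median of 9 in gained, 5 in lost, 21 in kept and 3 in windows with no region. The AP-1 letters TGANTCA were in 11.6% of gained, 9.51% of lost, 5.01% of kept and 10.5% of windows with no region, and in 7.04% of all. Gained promoters thus exceeded kept ones, and were near lost windows and windows with no region. The RBPJ letters TGGGAA were in 24.9% of gained, 29.1% of lost and 24.2% of all windows. The E-box CAGCTG, which PTF1A dimers and BHLHA15 bind, was in 20.9% of gained, 22.7% of lost and 15.5% of kept windows. ETS letters (CCGGAAG) were in 17.1% of kept windows, 4.02% of gained and 2.76% of lost ones, and SP and KLF letters (GGGGCGGGG) in 22.5%, 8.79% and 4.29%. The 3 AP-1 promoters printed above are thus part of a minority of gained promoters. Sequence outside promoter windows, where most gained and lost regions lay, was not used here.

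**Figure D5:**
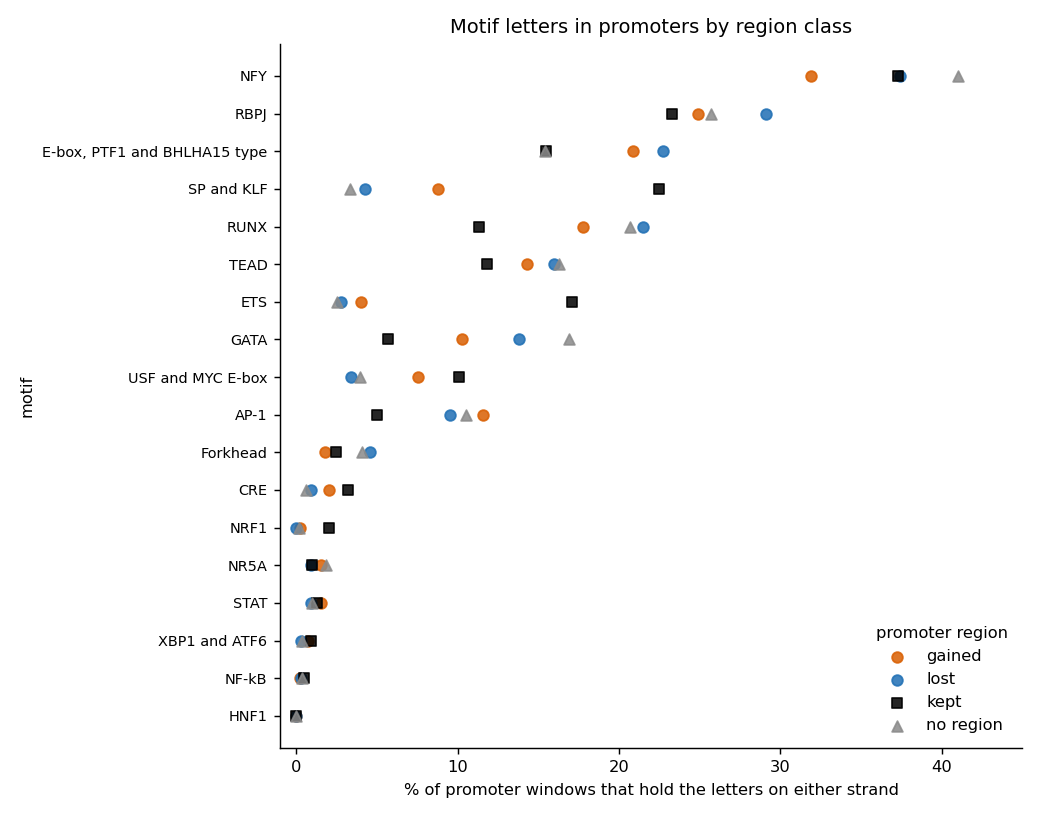
Share of promoter windows, in percent on the horizontal axis, that hold the letters of each of 18 motifs (vertical axis) on either strand, by class of the overlapping region: gained (orange circles), lost (blue circles), kept (black squares) or none (grey triangles). For ETS and for SP and KLF letters, gained and lost windows stand with the windows that hold no region, and below the kept ones.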

How the data were processed

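The deposited files are narrowPeak lists of accessible regions, 1 per library, on mm10 (GRCm38). Reads were processed with MACS2 2.1.0.20150731, Bowtie2 2.2.6 and, in versions not given, deepTools, SAMtools and cutadapt, per the submitters' processing notes, which as used here give no settings. The deposited columns give each region's fold over background (a ratio), its −log10 p and −log10 q, a score that equals 10 times the −log10 q, and the summit's offset in bases, all the authors' own values. Read counts per library were not used here, so depth is known only through the background pileup that fold and −log10 p imply together (5.069 reads in the untreated, 2.723 in the day 7 library, the latter with fewer reads behind each value). Overlap of at least 1 bp, links to the closest RefSeq GRCm38.p6 protein-coding gene (at most 50 kb away), and letter searches were computed in Python 3.11.15 with pandas 2.3.3 and NumPy 2.4.6, exact binomial intervals with SciPy 1.17.1. Starts came from the RefSeq promoter table, which covers 17274 of the genes and none on chromosome 18. The linking and overlap code was tested on simulated intervals, and BEDTools 2.31.1 gave the same 52272 gained and 44918 lost regions. A region split into several peaks counts several times. Of 790 distinct listed genes 788 matched the table.

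The rule for named genes took the 20 with the most gained or lost regions, the 20 with the highest share, the 20 with regions in 1 list alone, the 15 strongest start regions, the 15 longest runs, and up to 5 per gene list and direction. Outside this rule, Atf3, Cckar, Ptprc, Pecam1, Cdh5, Col1a1, Gapdh, Hprt, Tbp, the leukocyte genes given at 0 and the intestinal genes were chosen after their values were seen. The members and lists were chosen with earlier results of these data known. Samples were grouped by their labels, and the DCLK1-positive libraries were not used here. Other overlaps, thresholds, floors, link distances and start windows were tried. The text gives only some of the genes that this rule names.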

Additional observations from a re-analysis of the deposited data

How the results depend on the processing

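Over the alternatives, gained regions ranged from 38259 to 54982 and lost regions from 32086 to 49934. Gained exceeded lost by 7354, and by 3007 to 8428 under the other overlaps, thresholds and floors but one. With the day 7 floor raised to the enrichment of regions that all 4 lists hold, chosen after seeing the data, the difference was -11675, genes with at least 5 more gained regions numbered 775, and 9 lists had more gained and 27 more lost regions. Under that floor the difference also turned at Zbtb7c, Bach1 and Ccnd3 (-1 each) and at Egfr and Klf2 (-2 each). With links within 10 kb it turned at Lmo3 (1), Lep (-1) and Rbpj (-1), and at a −log10 q of at least 5 in both lists at Actn1 (1). Of 287 named genes followed, 9 changed sign under any of the 9 settings and 278 did not. A change of sign here means that the difference turned to the other side. Because the naming rule took genes by their counts in the main setting, this count is no independent check of sign. Counting either gene end as a start gave 535 genes with a region there at day 7 alone and 495 in the untreated list alone. No paired analysis was possible because each group has 1 library and the results come from no test. With 1 library a group, no value here has an error between animals; the lower background of the day 7 library sets its floor at fewer reads (10 against 14 at the weakest summit).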
